A study of Mus musculus with 6 samples.

Results

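The genes described here are 39 genes of cholesterol and fatty acid synthesis. They were listed by name for their roles, with earlier results of these data known. They cover the supply of acetyl-CoA and NADPH, the mevalonate pathway and its continuation to cholesterol, sterol sensing, the use, transport and export of sterols, and the making, elongation and desaturation of fatty acids. Of the 39, 37 were measured by a probe set with 1 gene symbol, out of 18193 genes on the array. Acat2 and Soat1 were not measured in this way and enter only the promoter counts. For each gene the probe set with the highest mean signal over the 6 arrays was read.

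The samples were Ba/F3 cells, a mouse BALB/c haematopoietic line that needs interleukin-3, here grown with serum and with supernatant of WEHI-3 cells. Every sample carried PAX5-KIDINS220 (P-K220), a fusion of the B-lineage transcription factor PAX5 with the membrane scaffold KIDINS220, transduced with a retroviral Tet-on system. There were 3 samples without doxycycline, labelled Dox(-), and 3 with 500 ng/mL doxycycline, labelled Dox(+), all taken for RNA at 24 h, and the series asks about pathways downstream of the fusion. Whether the line is 1 clone or a pool is not given in the labels, nor whether the samples of a group are separate cultures. The p-values thus measure only how these samples scatter, which may be technical. No sample analysed here had doxycycline without the fusion construct, so effects of the drug and of the fusion cannot be told apart.

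The first letters and digits of the array codes split the arrays into a set of 2 (1 Dox(-), 1 Dox(+)) and a set of 4 (2 of each), and 17.3% of all genes were higher and 16.3% lower in the 4-array set (limma adjusted p under 0.05). The doxycycline difference was therefore fitted with the set as a block. In the 4-array set the Dox(+) codes precede the Dox(-) codes, so code order and treatment cannot be told apart there. The ratios of 3' to 5' signal were 0.637 to 0.688 for Gapdh and 1.17 to 1.24 for beta-actin. The Pax5 probe set with the strongest response read 3.76 to 20.3 in Dox(-) and 94.2 to 119 in Dox(+) arrays, while a second Pax5 probe set and the Kidins220 probe sets had blocked log2 differences of -0.08 to 0.26. Of the Ba/F3 markers, Ptprc, Csf2rb and Csf2rb2 were bright on all arrays, and Il3ra read 296 to 898. The progenitor gene Kit and the pro-B genes Cd79a, Vpreb1, Igll1 and Ebf1 had mean signals of 19.3 to 59.8. The B-lineage gene Cd79b read 467 to 777. Ighm, the mu heavy chain gene, had signals of 11.3 and 12.9 in the 2-array set, and rose in the 4-array set from 455 and 534 to 1360 and 1385 (1.45, limma adjusted p 0.0059), with a blocked difference of 0.99 (SE 0.26, adjusted p 0.21). Listed markers of fibroblasts, hepatocytes and adipocytes had mean signals of 9.09 to 38.7, and those of monocytes and granulocytes of 22.3 to 278, with sums of 825 to 1301 in Dox(-) and 750 to 1227 in Dox(+). In such bulk RNA, fewer cells of a type and less RNA per cell cannot be told apart.

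Cholesterol and fatty acids are both built from cytosolic acetyl-CoA with NADPH as reductant. Low sterol in the endoplasmic reticulum lets SCAP carry the SREBP transcription factors to the Golgi, where they are cut free to switch on the genes of sterol uptake and synthesis (mainly SREBF2) and of fatty acid synthesis (mainly SREBF1). Excess sterol is sensed by INSIG proteins, which hold SCAP back, and by the LXR receptors, which drive the export pumps ABCA1 and ABCG1. Dividing blood cells need both products for new membrane.

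With doxycycline, 3 of the 37 genes were higher and 0 lower over all genes tested (blocked limma, Benjamini-Hochberg adjusted p under 0.05), against 0.148% and 0.0495% of all 18193 genes. The 3 were Cyp11a1, the mitochondrial enzyme that cuts the side chain of cholesterol, Acss2, which makes acetyl-CoA from acetate, and Idh1, a cytosolic source of NADPH. They rose 1.66-fold (95% interval 1.51 to 1.82), 1.39-fold (1.28 to 1.51) and 1.44-fold (1.29 to 1.60). The 17 measured genes of sterol synthesis had a median log2 difference of 0.19 and the 8 of fatty acid synthesis one of -0.10, against 0.004 over all genes, and no gene of either group passed. Of the 37 differences 25 were above 0, where 50.7% of all genes were. At an unadjusted blocked p under 0.05 there were 11 higher and 2 lower of the 37, where all genes gave 5.82% and 5.26%. Since the list was drawn up with earlier results known, the shares of all genes here and below are background values. They do not test the list.

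The 3 calls rested on the block and on single arrays of the 4-array set. Without the block 0 of the 37 passed and 0 of all genes did (limma). At an unadjusted p under 0.05 that fit gave 1 of the 37 higher and 0 lower, against 1.46% and 1.12% of all genes. Without replicate 3 of the Dox(-) group or replicate 2 of the Dox(+) group 0 passed, and without replicate 2 of the Dox(-) group or replicate 3 of the Dox(+) group only Cyp11a1 did. With no mean-variance trend 0 passed, as with the mean of all probe sets of a gene. Calls over all genes fell too. They were 0 without Dox(-) replicate 3, without Dox(+) replicate 2 and with no trend. Those called higher and lower were 2 and 1 without Dox(-) replicate 2, and 3 and 2 without Dox(+) replicate 3. With probe sets averaged they were 8 and 5. In the 4-array set fitted by itself the same 3 genes passed and no other of the 37, where 0.302% of all genes were called higher and 0.11% lower.

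**Figure D1:**
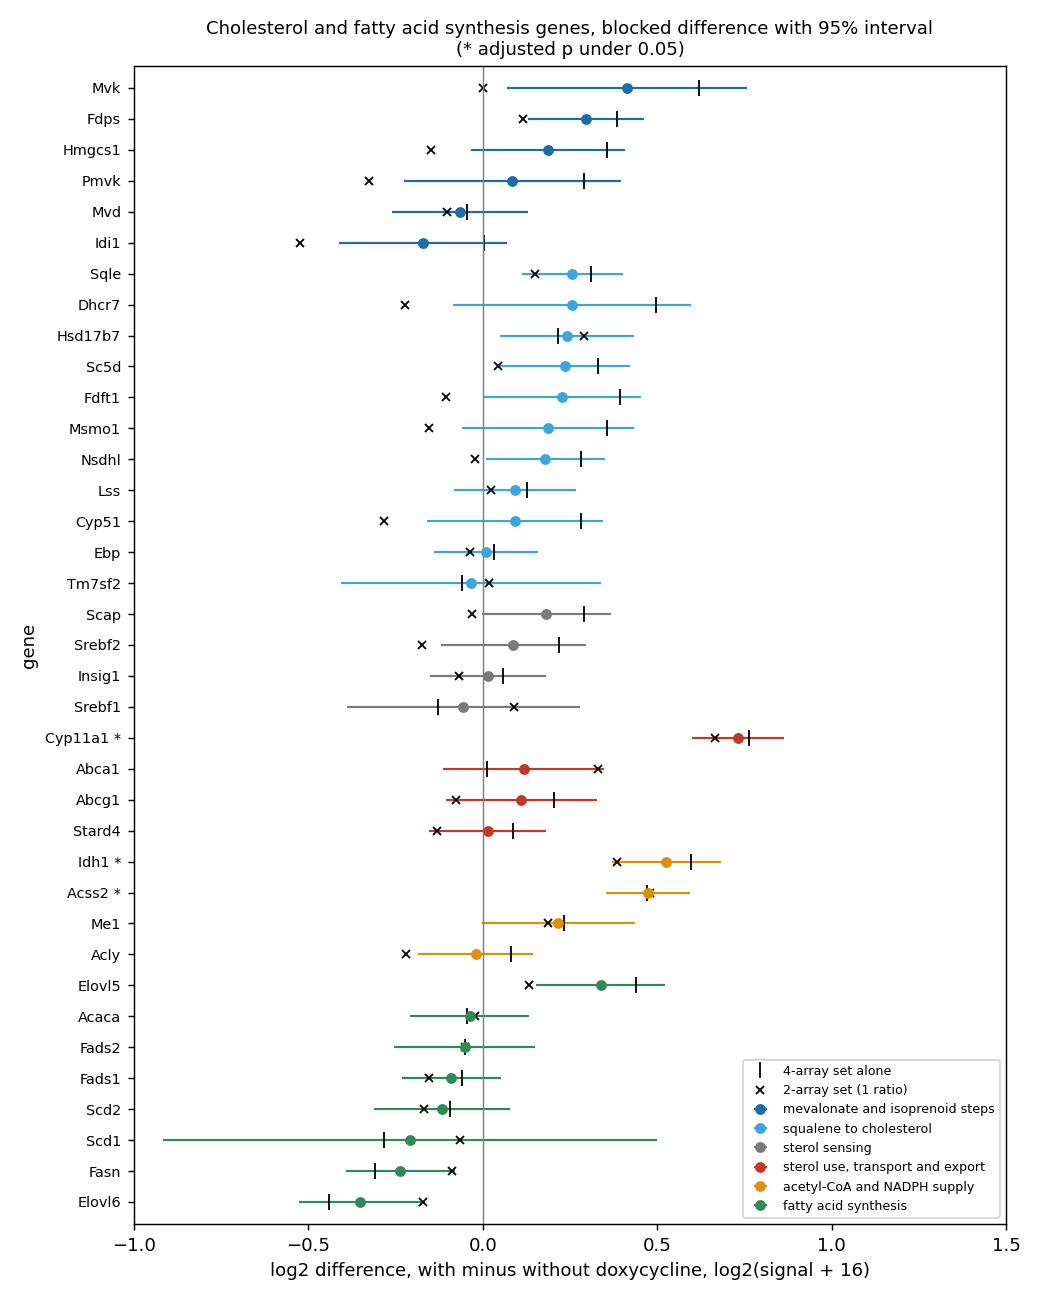
Blocked log2 difference of each of the 37 genes, with minus without doxycycline on the log2(signal + 16) scale, as points with 95% intervals, coloured by role; bars mark the 4-array set alone and crosses the single ratio of the 2-array set. Cyp11a1, Idh1 and Acss2 lie farthest to the right with all their marks well above 0, 15 of 17 sterol synthesis genes are right of 0 in the 4-array set against 7 in the 2-array one, and 7 of 8 fatty acid genes lie left of 0.

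The promoters of the 3 called genes are shown because these genes changed (a choice made after their values were seen), and that of Hmgcs1 because it alone among the genes with a window held the letters of the sterol regulatory element, to which SREBP binds. Each is the RefSeq window of 300 bases (GRCm38.p6), written 5' to 3' on the strand of the gene. Capitals mark CCAAT (the NF-Y box), GGGCGG (an Sp1 box) and TCACNCCAC (core letters of the sterol element), read on either strand.
Cyp11a1, chr9:57997774-57998073, + strand: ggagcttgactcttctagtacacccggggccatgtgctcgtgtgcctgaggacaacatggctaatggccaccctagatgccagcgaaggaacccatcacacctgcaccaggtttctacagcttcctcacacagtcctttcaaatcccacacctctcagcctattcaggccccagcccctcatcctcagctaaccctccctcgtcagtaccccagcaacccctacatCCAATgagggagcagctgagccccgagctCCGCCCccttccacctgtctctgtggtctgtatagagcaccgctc
Acss2, chr2:155517793-155518092, + strand: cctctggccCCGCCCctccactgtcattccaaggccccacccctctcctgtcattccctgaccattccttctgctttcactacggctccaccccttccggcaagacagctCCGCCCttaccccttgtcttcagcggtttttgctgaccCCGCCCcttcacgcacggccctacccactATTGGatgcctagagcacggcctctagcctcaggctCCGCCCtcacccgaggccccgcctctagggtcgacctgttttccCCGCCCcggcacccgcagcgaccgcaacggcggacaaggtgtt
Idh1, chr1:65186430-65186729, - strand: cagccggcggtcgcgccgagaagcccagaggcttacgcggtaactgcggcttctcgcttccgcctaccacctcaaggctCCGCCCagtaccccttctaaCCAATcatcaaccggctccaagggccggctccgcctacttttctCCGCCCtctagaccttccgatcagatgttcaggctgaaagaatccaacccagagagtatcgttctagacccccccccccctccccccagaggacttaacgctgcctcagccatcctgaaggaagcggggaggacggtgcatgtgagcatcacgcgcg
Hmgcs1, chr13:119690101-119690400, + strand: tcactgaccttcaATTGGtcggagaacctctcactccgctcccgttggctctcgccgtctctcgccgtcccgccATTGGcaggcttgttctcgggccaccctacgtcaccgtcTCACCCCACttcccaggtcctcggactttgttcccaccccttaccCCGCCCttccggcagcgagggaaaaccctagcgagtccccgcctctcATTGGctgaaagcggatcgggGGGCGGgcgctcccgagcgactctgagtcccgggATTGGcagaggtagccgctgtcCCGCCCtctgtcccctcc
Cyp11a1 and Idh1 each had another window, with 0 and 1 of these matches, which is not shown. Windows were found for 31 of the 39 genes, 40 windows in all. The sterol synthesis genes Fdps, Fdft1 and Sqle had none.

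CCAAT lay in 65% of the 40 windows and GGGCGG in 75%, against 37.4% and 35.7% of the 32851 windows of all genes. Of 15 sterol synthesis genes with a window 14 held CCAAT, and of 5 fatty acid synthesis genes 2 did. The sterol element letters TCACNCCAC were in 1.24% of all windows and in 1 of the 40, that of Hmgcs1, where they begin at position -137 from the start site. The E box CACGTG was in 20% of the windows, for Abca1, Dhcr7, Elovl5, Hsd17b7, Insig1, Sc5d and Scap, and in 7.15% of all. GCGTGAC, part of the longer PAX5 site, was in 1 of the 40 (Soat1) and in 2.09% of all. The LXR repeat, AGGTCA and AGGTCA again after any 4 bases, was in 0 of the 40 and in 0.0152% of all. The windows are short, and a match of letters is not a bound site. Nor does the lack of a match show that a gene has no such site.

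Genes that supply acetyl-CoA and NADPH came first in size, with a median log2 difference of 0.35 over 4 genes, of which 2 rose. Acss2 had signals of 1530, 4604 and 4707 on the Dox(-) arrays and 2141, 6419 and 6497 on the Dox(+) arrays, the first of each from the 2-array set. Within each set every Dox(+) array lay above every Dox(-) array, while across the sets the groups overlapped, since Acss2 was 3.01-fold higher in the 4-array set. Its log2 difference was 0.47 (SE 0.05, blocked limma adjusted p 0.017), with 0.48 in the 2-array set against 0.47 in the 4-array one. A second bright Acss2 probe set was at 0.37 (SE 0.08).

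Idh1, which turns isocitrate into 2-oxoglutarate in the cytosol, read 1026, 2328 and 2162 on the Dox(-) arrays and 1344, 3492 and 3314 on the Dox(+) arrays. The Dox(+) arrays were again the higher ones inside each set, and the 4-array set was 2.33-fold above the other. The log2 difference was 0.53 (SE 0.07, blocked limma adjusted p 0.027), with 0.38 and 0.60 in the 2-array and 4-array sets. Its call was lost with median centring (adjusted p 0.059) and with a pseudocount of 64 (0.051). Both Idh1 probe sets have IDs ending in _s_at, which marks probes shared by several transcripts, and the dimmer of them was at 0.41 (SE 0.11).

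Me1, cytosolic malic enzyme and another NADPH source, read 809, 358 and 340 without and 924, 390 and 435 with doxycycline. It too was higher in the Dox(+) arrays of each set, with ratios of 0.19 and 0.23 on the log2 scale, but did not pass (0.22, SE 0.10, blocked limma adjusted p 0.46). A dimmer Me1 probe set was at 0.55 (SE 0.15), with 0.80 and 0.42 in the sets. Acly, ATP citrate lyase, which makes acetyl-CoA from citrate, was at -0.02 (SE 0.07), with -0.22 in the 2-array set against 0.08 in the 4-array one. Acss2 and Acly, the enzymes of the acetate and citrate routes to acetyl-CoA, therefore had intervals of 0.35 to 0.59 and -0.18 to 0.15.

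**Figure D2:**
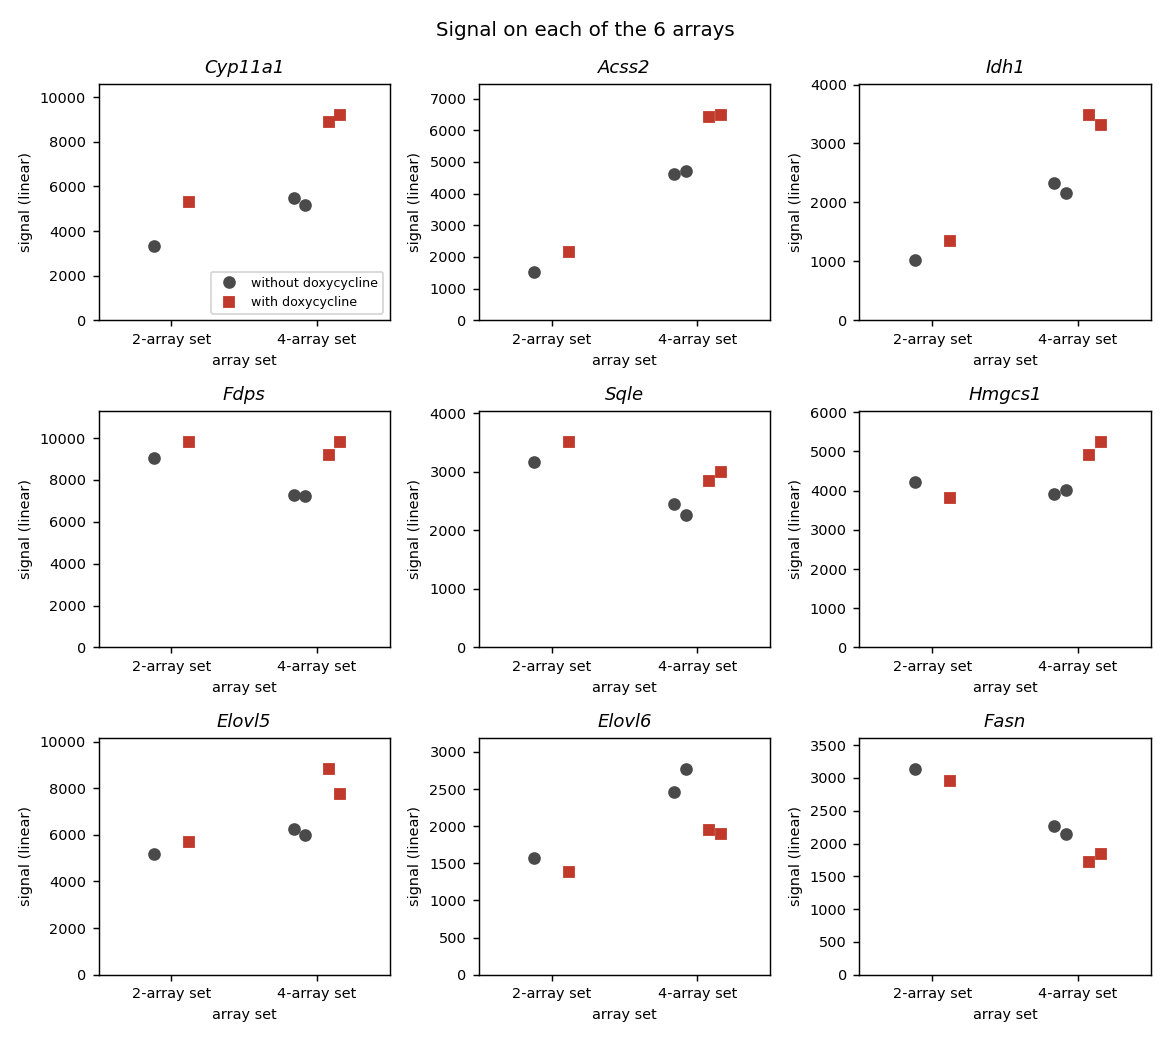
Linear signal (vertical axis, from 0) on each of the 6 arrays for 9 genes, by array set, with circles for Dox(-) and squares for Dox(+). For Cyp11a1, Acss2 and Idh1 the squares are above the circles in both sets, for Hmgcs1 only in the 4-array set, and for Elovl6 and Fasn they are below the circles in both.

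The mevalonate steps, which turn acetyl-CoA into farnesyl diphosphate, had a median of 0.14 over 6 measured genes, 4 positive and 2 negative, and none passed. Fdps, farnesyl diphosphate synthase, had Dox(-) signals of 9066, 7301 and 7226 and Dox(+) signals of 9829, 9206 and 9795. All 3 Dox(+) arrays lay above all 3 Dox(-) arrays. Such a split was seen for 3.84% of all genes, and for 3 of the 37, and the opposite split for 3.06% and 0. The difference of Fdps was 0.30 (SE 0.07, blocked limma adjusted p 0.18), with 0.12 in the 2-array set against 0.39 in the 4-array one.

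Hmgcs1, cytosolic HMG-CoA synthase, had Dox(-) signals of 4234, 3925 and 4005 against 3822, 4906 and 5251 in Dox(+). The Dox(+) array was the lower one in the 2-array set, and both were the higher ones in the 4-array set, with log2 values of -0.15 and 0.35, for a blocked difference of 0.19 (SE 0.10). Its 3 next brightest probe sets gave 0.17 to 0.20. The sets parted in the same way for each of them, with -0.22 to -0.05 against 0.30 to 0.37. Mvk, mevalonate kinase, read 513, 282 and 243 without and 513, 426 and 397 with doxycycline. Its ratio was 0.001 in the 2-array set against 0.62 in the 4-array one. The blocked difference was 0.41 (SE 0.15, blocked limma adjusted p 0.34), while a second Mvk probe set was at -0.10 (SE 0.17).

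Idi1, which isomerises isopentenyl diphosphate, was the lowest of the 17 at -0.17 (SE 0.11). The 2-array set alone set this value, with -0.52 (signals 7936 and 5521), against 0.004 in the 4-array set (3826 and 3721, then 3534 and 4052). Pmvk and Mvd, the kinase and decarboxylase that finish isopentenyl diphosphate, were at 0.09 (SE 0.14) and -0.06 (SE 0.09). The brighter Mvd probe set was negative in the 4-array set (-0.05) and the other positive (0.28).

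From squalene to cholesterol 10 of 11 genes were positive, with a median of 0.19, and none passed. Sqle, squalene epoxidase, a rate-setting step, read 3164, 2445 and 2268 in Dox(-) and 3515, 2844 and 3001 in Dox(+). The Dox(+) arrays were higher in both sets, by 0.15 and 0.31, for a difference of 0.26 (SE 0.06, blocked limma adjusted p 0.19). Sc5d, a sterol desaturase, read 1800, 1681 and 1585 without and 1857, 1926 and 2197 with doxycycline. Hsd17b7, which reduces a sterol ketone, read 732, 754 and 647 without and 900, 800 and 830 with it. For Sc5d and Hsd17b7 no Dox(+) array overlapped a Dox(-) array, and both were at 0.24 (SE 0.08 and 0.09, blocked limma adjusted p 0.32 and 0.33). Dimmer probe sets disagreed: the next ones of Hsd17b7 were at 0.01 (SE 0.10) and 0.36 (SE 0.13), and that of Sc5d was at -0.08 (SE 0.09).

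Fdft1, squalene synthase, at 0.23 (SE 0.10), Msmo1 at 0.19 (0.11), Nsdhl at 0.18 (0.08), Dhcr7 at 0.26 (0.15) and Cyp51 at 0.09 (0.11) were below 0 in the 2-array set but above 0 in the other. These 4 enzymes after Fdft1 remove methyl groups from lanosterol or reduce the last double bonds. A second bright Fdft1 probe set was not below 0 in the 2-array set (0.006), and had 0.18 in the 4-array one. Lss, lanosterol synthase, was at 0.09 (SE 0.08), Ebp, a sterol isomerase, at 0.01 (0.07), and Tm7sf2, a sterol reductase, at -0.03 (0.16). The largest of these 4-array values was that of Dhcr7, at 0.50 (SE 0.12, limma adjusted p 0.15), with signals of 598 and 574 in Dox(-) and 749 and 927 in Dox(+), against 652 and 556 in the 2-array set.

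The 17 sterol synthesis genes had a median of 0.29 in the 4-array set against -0.04 in the 2-array one, with 15 and 7 of 17 positive, where 49.7% and 52.5% of all genes were positive. Without overlap in the 4-array set, 13 of 17 were higher and 0 lower, against 21.6% and 20.9% of all genes. Of these 13, 6 also lay higher in the 2-array set (Mvk, Fdps, Sqle, Lss, Hsd17b7 and Sc5d), Mvk by a log2 ratio of only 0.001. Among all genes 3924 were higher without overlap in the 4-array set, and 2300 of them were also higher in the 2-array set. The shares of 6 of 17 and of 12.6% of all genes include the 4-array split itself. The difference between the sets was itself fitted, with the lone arrays of the 2-array set assumed to vary like the others. It passed for 0 of the 17 and 0 of all genes after adjustment (limma), and 9 of the 17 had an unadjusted p under 0.05, against 6.72% of all genes. Hmgcs1 had the smallest of these, a difference of 0.50 (SE 0.11, unadjusted p 0.0033, limma adjusted p 0.53).

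**Figure D3:**
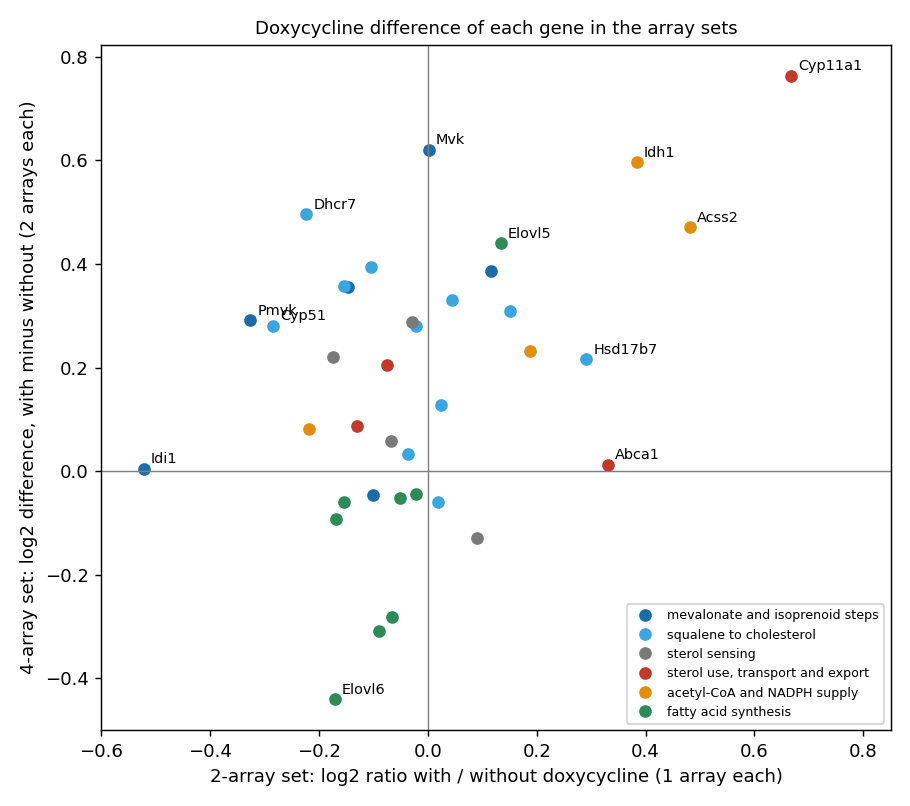
Log2 ratio with over without doxycycline in the 2-array set (horizontal axis, 1 array each) against the log2 difference in the 4-array set (vertical axis, 2 arrays each), 1 point a gene, coloured by role. Cyp11a1, Acss2 and Idh1 lie at upper right, most sterol synthesis genes lie above 0 vertically on both sides of 0 horizontally, and all but 1 of the fatty acid genes lie at lower left.

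Values of other processes stood beside this split. The 15 measured cell division genes were all below 0 (median -0.23), where 50.7% of all genes were above 0. Their medians were -0.34 in the 4-array set against -0.02 in the 2-array one. The proliferation gene Mki67 fell in the 4-array set (-0.60, limma adjusted p 0.029), as did Rrm2 (-0.49, 0.043). Of all genes 0.11% were called lower there. In that set the 3' to 5' ratios of Dox(-) and Dox(+) arrays overlapped for Gapdh and for beta-actin. In the blocked fit Mki67 was at -0.48 (SE 0.08, limma adjusted p 0.074) and Aurkb, a mitotic kinase, at -0.35 (SE 0.07, adjusted p 0.12). Mki67 was also lower in the 2-array set (-0.24), where 5 of the 15 genes were above 0. The part of cell division in the sterol values was not tested.

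The sterol sensing genes had a median of 0.05, and none passed. That median ran from 0.0084 without replicate 3 of the Dox(+) group to 0.14 without either array of the 2-array set. Scap, the escort of SREBP, read 1390, 1003 and 1024 without and 1361, 1208 and 1277 with doxycycline. It lay higher in the Dox(+) arrays of the 4-array set only, for a difference of 0.18 (SE 0.08, blocked limma adjusted p 0.46). Srebf2 read 1196, 996 and 970 without and 1058, 1104 and 1192 with doxycycline, a difference of 0.09 (SE 0.09), while its dimmer probe set gave 0.22 and 0.23 in the 2 sets. Srebf1 had signals of 2390, 1754 and 1807, then 2545, 1283 and 2062. Its Dox(+) arrays of the 4-array set lay on either side of the Dox(-) arrays, and the difference was -0.06 (SE 0.15). Insig1, itself a target of SREBP, was at 0.02 (SE 0.07), with an interval of -0.15 to 0.18. For all 4 genes the sets differed in sign.

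Among genes of sterol use, transport and export, Cyp11a1 rose and the other 3 measured did not pass. Cyp11a1 read 3345, 5480 and 5182 in Dox(-) and 5321, 8898 and 9221 in Dox(+). In each set the Dox(+) arrays stood clear of the Dox(-) arrays, and the groups met only because the 2-array Dox(+) signal lay among the 4-array Dox(-) signals. The log2 difference was 0.73 (SE 0.06, blocked limma adjusted p 0.0058), ranking 2 of all genes by p-value, with 0.67 in the 2-array set against 0.76 in the 4-array one. It fell short in the mean of all its probe sets (0.36, adjusted p 0.52), where 2 dim ones with mean signals of 46.6 and 21.9 enter.

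Cyp11a1 makes pregnenolone, the start of all steroid hormones, and takes electrons from ferredoxin. Of 9 measured steroid hormone genes none passed. Fdx1, the ferredoxin, was at 0.16 (SE 0.08) and Tspo, an outer mitochondrial membrane protein long studied in steroid-making cells, at 0.19 (SE 0.07, blocked limma adjusted p 0.33). The defining genes of steroid-making cells were dim: Star had signals of 53.3 to 143, Hsd3b1 of 3.30 to 28.8, Cyp17a1 of 5.68 to 15.1 and Nr5a1 of 7.72 to 36.0. The summed signal of these 4 was 131 to 196 in Dox(-) and 104 to 153 in Dox(+).

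Abca1, which loads cholesterol onto apolipoproteins, read 253, 2576 and 2936 without and 322, 2517 and 3056 with doxycycline. Its treatment difference was 0.12 (SE 0.10), and it was 9.21-fold higher in the 4-array set (95% interval 7.77 to 10.9). Abcg1, its partner pump, read 1535, 933 and 953 without and 1456, 983 and 1207 with doxycycline, at 0.11 (SE 0.10). Stard4, a carrier of free sterol, was at 0.01 (SE 0.07).

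None of the 8 fatty acid synthesis genes passed, with 1 positive and 7 negative. All 8 had the same sign in both sets, where 53.8% of all genes did. Elovl6, which lengthens palmitate to stearate, read 1566, 2466 and 2772 in Dox(-) and 1389, 1949 and 1896 in Dox(+). It lay lower in the Dox(+) arrays of each set, at -0.35 (SE 0.08, blocked limma adjusted p 0.14), with -0.17 and -0.44 in the 2-array and 4-array sets. Its dimmer probe sets were at -0.18 (SE 0.08) and -0.68 (SE 0.40).

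Fasn, the fatty acid synthase, read 3139, 2274 and 2145 without and 2950, 1724 and 1838 with doxycycline. It too was lower in each set, by -0.09 and -0.31, for a difference of -0.24 (SE 0.07, blocked limma adjusted p 0.25). Elovl5, which lengthens polyunsaturated fatty acids, was the positive one, with 5200, 6240 and 5976 in Dox(-) and 5707, 8837 and 7774 in Dox(+). Its difference was 0.34 (SE 0.08, blocked limma adjusted p 0.18), with 0.13 and 0.44 in the sets. A second bright Elovl5 probe set had -0.15 in the 2-array set against 0.52 in the 4-array one.

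Acaca, which makes malonyl-CoA, was at -0.04 (SE 0.08), and the desaturases Fads1 and Fads2, which act on polyunsaturated fatty acids, at -0.09 (SE 0.06) and -0.05 (0.09). Scd2, a stearoyl-CoA desaturase, had signals of 13389 to 26687 and a difference of -0.12 (SE 0.09). Its paralogue Scd1 was dim (30.4 to 59.5), with -0.21 (SE 0.31) and an interval of -0.92 to 0.50, too wide to place it. Without overlap in the 4-array set and on the same side in the 2-array set, 3 lay lower (Fasn, Scd1 and Elovl6) and 1 higher, against 11.2% and 12.6% of all genes.

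More of the 37 genes differed in level between the array sets than with doxycycline. In the blocked fit 8 were higher and 18 lower in the 4-array set (limma adjusted p under 0.05), against 17.3% and 16.3% of all genes. Of the sterol synthesis genes 10 of 17 were lower and 0 higher, with a median of -0.40, led by Idi1 at -0.81 (SE 0.11) and Mvd at -0.79 (SE 0.09). Abca1 was 9.21-fold, Acss2 3.01-fold, Idh1 2.33-fold, Scd2 1.70-fold and Cyp11a1 1.64-fold higher there, while Me1 was at 0.449 of its level. All 3 genes that rose with doxycycline were thus also higher in the 4-array set. Outside the list, Ighm differed between the sets as given above, and Fcgr1, of monocytes, had signals of 771 and 754 in the 2-array set against 10.8 to 52.7. The part of such genes in the set differences was not tested. The labels do not say what the code sets stand for, so these are differences between sets of arrays.

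**Figure D4:**
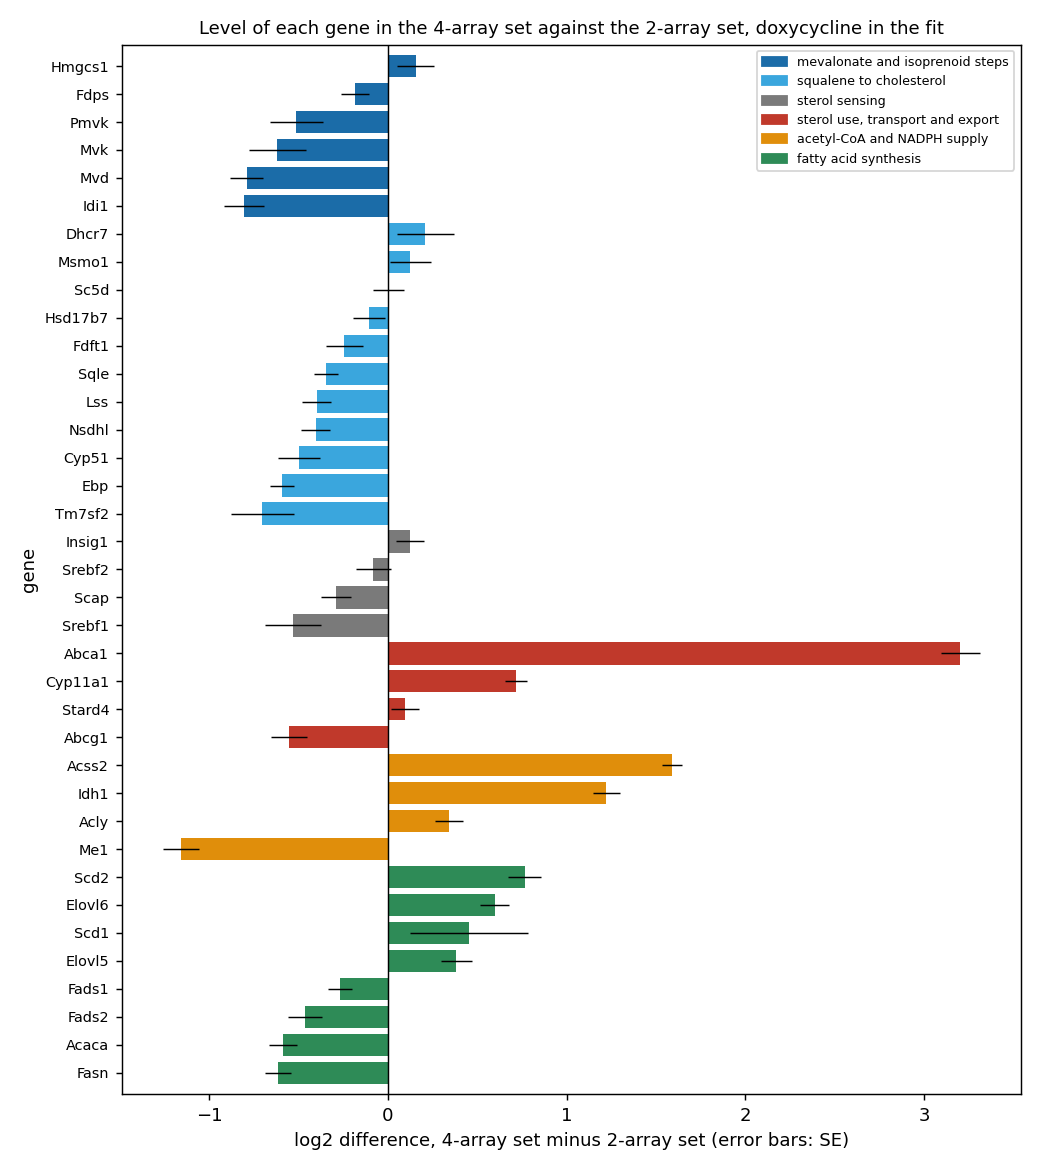
Log2 difference of each of the 37 genes between the array sets, 4-array minus 2-array set, from the fit that also holds doxycycline, with error bars of 1 SE, coloured by role. Abca1 stands out at 3.20, Acss2 and Idh1 follow at 1.59 and 1.22, Me1 is lowest at -1.16, and most sterol synthesis bars point left.

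Other genes of these pathways were counted from lists set by role, also with earlier results known. None passed with the block in any of these 7 lists, that of steroid hormone synthesis included, against 0.148% of all genes higher and 0.0495% lower. In the 4-array set alone 2 genes rose, where 0.302% of all genes were called higher. Of 11 other sterol and isoprenoid enzymes 8 were positive (median 0.06), with Coq2, of ubiquinone synthesis, at -0.31 (SE 0.07) and Rabggta, which prenylates Rab proteins, at 0.27 (0.10). Of 10 genes of SREBP processing and sterol-driven degradation 7 were positive (median 0.07). Among them Pgrmc1, a haem-binding membrane protein that associates with sterol-making P450 enzymes, had a difference of 0.42 (SE 0.09, blocked limma adjusted p 0.12) and rose in the 4-array set (0.56, limma adjusted p 0.035). Insig2 was at 0.24 (SE 0.07).

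Of 14 genes of LXR sensing and sterol handling 9 were positive (median 0.06), with the late endosomal carriers Stard3 at 0.22 (SE 0.09) and Npc2 at 0.18 (0.08). Of 21 other genes of fatty acid and glycerolipid synthesis 14 were positive (median 0.02). Elovl7, another elongase, read 52.3, 138 and 121 in Dox(-) and 78.6, 408 and 366 in Dox(+), at 1.14 (SE 0.26, blocked limma adjusted p 0.15), and rose in the 4-array set (1.47, limma adjusted p 0.040). Tecr, the reductase that ends each elongation cycle, was at 0.20 (SE 0.07).

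Of 8 other NADPH genes 7 were negative (median -0.13), with the folate enzymes Mthfd2 at -0.24 (SE 0.10) and Mthfd1 at -0.19 (0.08). The 11 fatty acid oxidation genes lay closest to 0, at -0.10 to 0.13 (median 0.008), with Acadl at -0.10 (SE 0.05) and Acaa2 at -0.10 (0.06).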

How the data were processed

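RNA of Ba/F3 cells was hybridised to Affymetrix mouse expression arrays, 1 per sample. The values are linear signal intensities that the authors deposited, and the submitters' processing notes name Affymetrix Expression Console, with no summarisation method or version given in the sources used here; each array had a trimmed mean of 500. Depth has no meaning here, and the number of arrays limits the precision.

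Probe sets were named from the platform annotation: of 45101, 34945 had 1 gene symbol, 932 several and 9160 none here, and 64 controls were left out. The 18193 genes were each read by their brightest probe set as log2(signal + 16), so fold changes of dim genes are understated. limma 3.58.1 (R 4.3.3; lmFit, eBayes with trend) fitted doxycycline with the array set as a block, with Benjamini-Hochberg adjustment over all genes and a threshold of 0.05. It was also fitted in the 4-array set alone, without the block, and with a term for the difference between sets. A check on simulated data used only fold changes larger than those of all members but Cyp11a1, so it does not cover theirs. The alternatives changed the block, normalization (quantile, median centring), prior, pseudocount (1, 64), filter on dim genes, choice of probe set, array weights or threshold (0.10), or left out each array in turn; their effect is given at the end.

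The members and gene lists were chosen with earlier results of these data known. All measured members are given. Signals of all 6 arrays are printed for members that pass, that do not overlap between groups or that have the 3 smallest p of their role; those of Idi1 and Dhcr7 were added after their values were seen. Other genes are named where they pass or have the 2 smallest p of their list. Probe sets sharing letters with a paralogue may read both genes.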

Additional observations from a re-analysis of the deposited data

How the results depend on the processing

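The count of the 37 genes called higher, 3, was 0 without the array-set block, with no mean-variance trend and with probe sets averaged (limma). In these fits 0, 0 and 8 of all genes were called higher. Leaving out each array in turn gave 0 to 3. The count of the 37 called lower was 0 under every alternative run. Over all alternatives the adjusted p of Cyp11a1 ran from 8.8e-04 to 1.0, that of Acss2 from 0.0053 to 1.0 and that of Idh1 from 0.0096 to 1.0. With probe sets whose IDs end in _s_at, _x_at or _a_at left out, Idh1 had no value. Over all genes, where 27 were called higher and 9 lower, the alternatives gave 0 to 80 and 0 to 50; the highest counts came with dim genes left out. The sterol synthesis median (0.19) ran from 0.10 to 0.29, and 0.11 to 0.29 with an array left out. The supply median (0.35) was 0.47 without those probe sets, that of sterol use and export (0.11) was 0.22 with probe sets averaged and 0.035 to 0.20 with an array left out, and that of fatty acid synthesis (-0.10) ran from -0.16 to -0.068 with an array left out. That of sterol sensing (0.05) ran from 0.0084 to 0.14. Of the 37 genes 26 kept their sign in every setting that gave them a value (17 settings for Idh1 and Scd1, 18 for the others), and of the 17 of sterol synthesis 12. No paired analysis was possible because the labels give no replicate numbers shared by the groups.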
